A study of Mus musculus with 8 samples.

Results

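The genes of TGF-beta and BMP signalling were followed in iWAT (inguinal white adipose tissue), a subcutaneous fat depot. The set holds 41 genes chosen by symbol for their place in the pathway, namely 7 ligand genes, 4 latent binding proteins, 12 receptors and co-receptors, 5 SMAD transducers, 8 intracellular inhibitors, the 4 ID genes and the secreted target Tgfbi. All 41 are among the 54532 genes of the deposited table, and 39 of them are among the 16012 genes that passed a filter on low levels (a mean of at least 0.5 FPKM, the fragments of a gene divided by its length and the library size). The RNA came from male mice on a high-fat diet (HFD). It formed 2 groups, wild type (WT, n = 4) and mice whose adipocytes lack the zinc-finger factor KLF10 (KLF10AKO, n = 4). For the age of the mice, the Cre line and the animal behind each library, nothing is given in the sources used here, so the tests speak only of the spread between libraries, which may be technical.

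Ligands of this superfamily bind pairs of type I and type II receptor kinases, which phosphorylate SMAD proteins that then enter the nucleus with the shared partner SMAD4. TGF-beta and activin ligands mostly use SMAD2 and SMAD3, and BMP ligands mostly use SMAD1 and SMAD5. In fat, BMP4 is known for committing progenitors to the adipocyte lineage and TGF-beta for holding back their differentiation and driving matrix production. Klf10 is itself known as a gene rapidly induced by TGF-beta, and its protein has been described as a repressor of Smad7.

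Klf10 (ENSMUSG00000037465, chromosome 15, 38291463 to 38300706, minus strand) is the gene targeted in KLF10AKO. WT replicates 1 to 4 held 16.7, 18.2, 16.7 and 21.1 FPKM and KLF10AKO replicates 1 to 4 held 9.39, 9.68, 9.75 and 9.59, a log2 change of -0.88 (standard error 0.0781, limma adjusted p = 8.96e-06). The value sums over all exons of the gene and shows no single deleted exon, and with marker scaling (below) the change was 0.72. Recovered reads ran from 15537863 to 17499132 per library. The 12 adipocyte markers were called lower in KLF10AKO in 12 of 12 cases, where 34.9% of all genes were called lower. Their summed levels were 11428 to 12459 FPKM in WT and 4071 to 4949 in KLF10AKO. The 10 B cell markers summed to 4.79 to 6.03 FPKM in WT and to 1624 to 2385 in KLF10AKO, and the 10 T cell markers to 3.5 to 5.33 and 355 to 521. Skeletal muscle markers summed to 162 to 215 FPKM in WT and to 4649.6, 3512, 8178 and 33.9 in KLF10AKO replicates 1 to 4. Markers of blood endothelium (314 to 331 against 161 to 178) and of stromal progenitors (1187 to 1482 against 502 to 558) had lower sums in KLF10AKO. Macrophage markers had a higher sum (653 to 732 against 851 to 878). Of these 10, however, 7 were called lower and 1 higher (34.9% and 39.4% of all genes). In each of these lists, 0 markers were at 0 in every library of a group. In bulk tissue, fewer cells of a type and less RNA per cell cannot be told apart, and the part of these cell types in the results below was not tested.

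With the authors' scaling most genes of the pathway were lower in KLF10AKO iWAT, while Tgfb1, the receptor gene Tgfbr2, Tgif1 and Id2 were higher. Tgfbr1 and Tgfbi also passed as higher, at small log2 changes of 0.21 and 0.27, and lost their calls under several alternatives (below). Of the 39 tested genes 27 (69.2%) passed the test as lower and 6 (15.4%) as higher, with a limma adjusted p under 0.05, and 6 did not pass. Over all 16012 genes, 34.9% passed as lower and 39.4% as higher, so 74.3% passed in either direction. The median log2 change of the 39 genes was -0.57, and that of all tested genes was 0.05. All 4 KLF10AKO values lay below all 4 WT values in 27 of the 39 genes (69.2%, against 33% of all tested genes). They lay wholly above WT in 5 of the 39 (12.8%, against 36.2%). The 27 were the genes called lower, and the 5 were among the 6 called higher. A call with a log2 change of at most -1 was met by 8 genes (20.5%, against 11.8% of all genes) and one of at least 1 by 3 genes (7.69%, against 17.6%).

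The direction depends on what the libraries are scaled to. After scaling of the libraries to 10 adipocyte markers, 33 of the 39 genes were called higher and 1, Ltbp3, lower. Over all genes, 87.8% were then called higher and 1.2% lower, and the median of all genes moved from 0.05 to 1.46. Measured against the median gene, 29 of the 39 genes lay below it and 8 above it under both scalings. By definition, all tested genes lie equally on both sides of it. Marker scaling multiplies all genes of a library by the same factor, so a gene's place against the median is nearly fixed. The agreement of the scalings is therefore no separate support. KLF10AKO replicate 4 had the lowest muscle and adipocyte sums of its group (33.9 and 4071 FPKM). It also had the highest B cell and T cell sums (2385 and 521 FPKM), so its use alone does not remove those markers. With it as the sole library of its group, the median log2 change was -0.57 for the 39 genes and 0.05 for all tested genes. Each log2 change below is given with the authors' scaling and, where so named, with marker scaling.

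**Figure D1:**
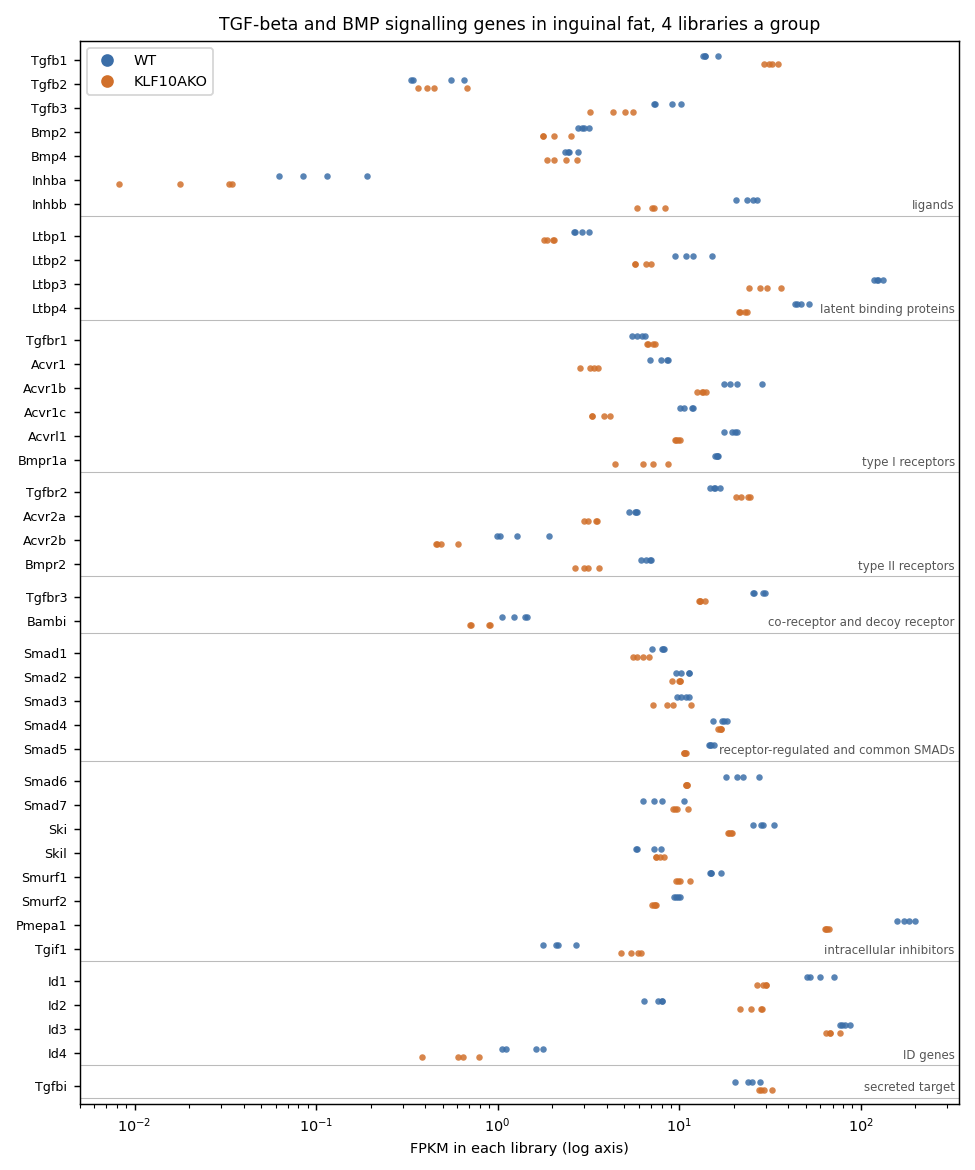
FPKM of the 41 genes (rows, by role) in each of the 8 libraries on a log axis, with WT in blue and KLF10AKO in orange, 4 points a group. In 27 of the tested genes the orange points lie wholly to the left of the blue ones, and in Tgfb1, Tgfbr1, Tgfbr2, Tgif1 and Id2 wholly to the right.

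**Figure D2:**
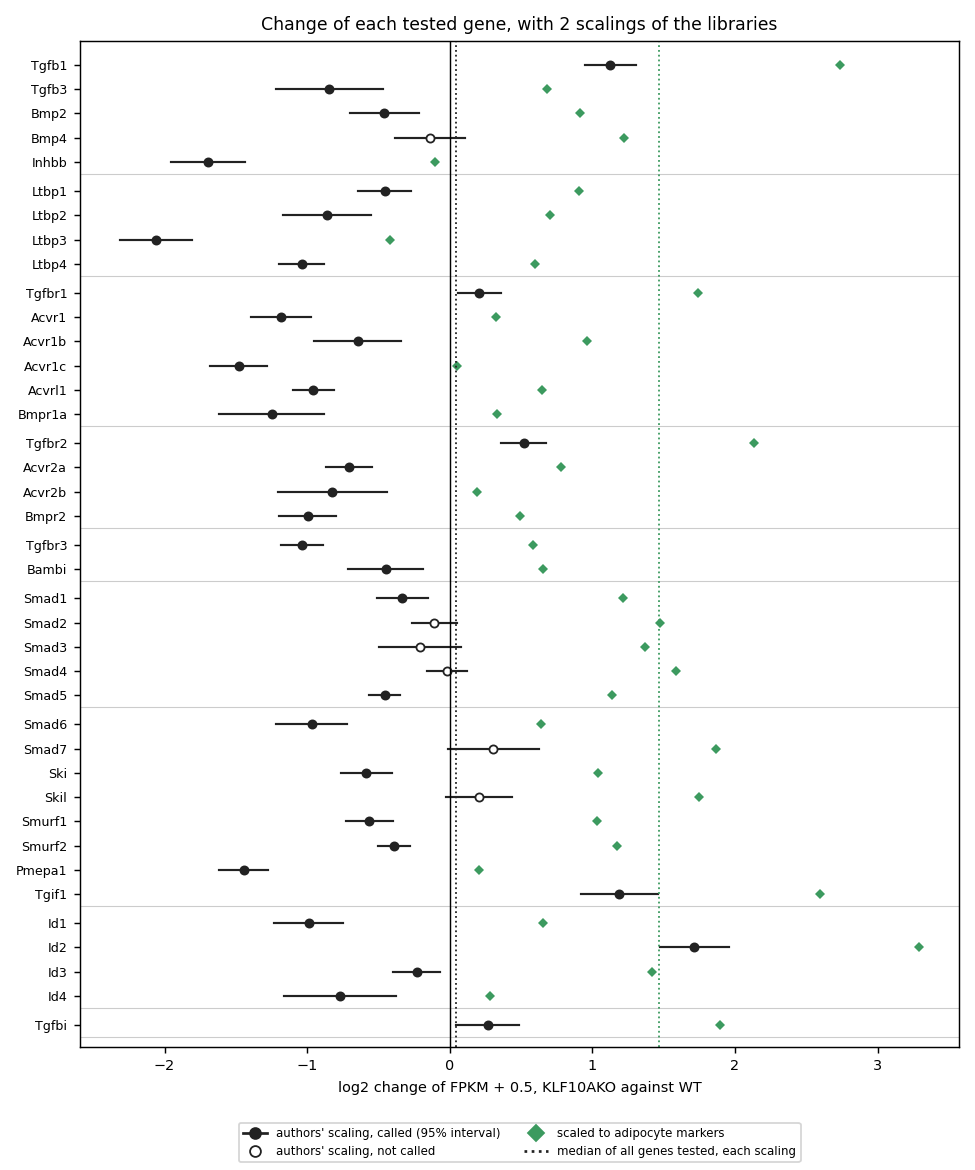
Log2 change of FPKM + 0.5 (x axis) of the 39 tested genes (rows, by role) with its 95% interval, filled where called, and the change after scaling to adipocyte markers (green diamonds). Dotted lines mark the median of all tested genes, 0.05 with the authors' scaling and 1.46 with marker scaling. With the authors' scaling 27 genes are called lower, and with marker scaling 1 is.

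Promoter sequence is shown for the genes with the strongest changes in each direction, so that genes that moved together can be set side by side. RefSeq promoters (GRCm38.p6, the assembly also named mm10), running from 250 bases before the annotated start to 50 after it, were matched by symbol for 30 of the 41 genes. The sequences below belong to the 3 genes that rose most (Id2, Tgif1 and Tgfb1), to the 3 that fell most among those matched (Ltbp3, Inhbb and Acvr1c) and to Smad6, whose promoter alone among the 30 held the SMAD palindrome. Capitals mark matches on either strand to 4 motifs: GTCTAGAC as the SMAD palindrome, GTCTG as the SMAD box, GGCGCC as the BMP-SMAD box and CACCC as the KLF box. Positions are Id2 at chr12:25096043-25096342, minus strand, Tgif1 at chr17:70853483-70853782, minus strand, Tgfb1 at chr7:25686752-25687051, plus strand, Ltbp3 at chr19:5740650-5740949, plus strand, Inhbb at chr1:119422199-119422498, minus strand, Acvr1c at chr2:58357709-58358008, minus strand and Smad6 at chr9:64022010-64022309, minus strand. The RefSeq start of Id2 lies 1048 bases from the start of the gene in the deposited table.
Id2: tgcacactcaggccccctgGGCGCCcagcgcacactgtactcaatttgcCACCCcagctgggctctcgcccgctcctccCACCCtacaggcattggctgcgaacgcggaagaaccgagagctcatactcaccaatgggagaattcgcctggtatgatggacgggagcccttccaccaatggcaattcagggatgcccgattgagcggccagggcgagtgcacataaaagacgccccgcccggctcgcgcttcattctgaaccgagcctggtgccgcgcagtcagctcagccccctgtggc
Tgif1: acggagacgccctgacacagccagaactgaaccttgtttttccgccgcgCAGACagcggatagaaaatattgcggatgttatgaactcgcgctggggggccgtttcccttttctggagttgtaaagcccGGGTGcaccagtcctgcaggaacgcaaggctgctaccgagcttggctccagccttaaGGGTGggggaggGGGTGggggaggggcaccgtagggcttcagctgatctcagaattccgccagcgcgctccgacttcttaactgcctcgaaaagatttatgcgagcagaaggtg
Tgfb1: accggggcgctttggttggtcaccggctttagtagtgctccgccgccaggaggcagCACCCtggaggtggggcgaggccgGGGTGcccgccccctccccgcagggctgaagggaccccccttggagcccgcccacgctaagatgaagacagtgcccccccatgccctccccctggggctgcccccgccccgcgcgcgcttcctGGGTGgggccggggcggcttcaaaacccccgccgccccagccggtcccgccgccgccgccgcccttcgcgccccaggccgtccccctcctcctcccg
Ltbp3: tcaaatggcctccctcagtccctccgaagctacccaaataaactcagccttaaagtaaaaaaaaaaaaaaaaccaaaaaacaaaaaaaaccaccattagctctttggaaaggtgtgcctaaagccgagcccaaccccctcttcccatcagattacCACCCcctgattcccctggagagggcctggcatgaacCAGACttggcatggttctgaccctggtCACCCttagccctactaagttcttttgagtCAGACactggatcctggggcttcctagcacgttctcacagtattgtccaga
Inhbb: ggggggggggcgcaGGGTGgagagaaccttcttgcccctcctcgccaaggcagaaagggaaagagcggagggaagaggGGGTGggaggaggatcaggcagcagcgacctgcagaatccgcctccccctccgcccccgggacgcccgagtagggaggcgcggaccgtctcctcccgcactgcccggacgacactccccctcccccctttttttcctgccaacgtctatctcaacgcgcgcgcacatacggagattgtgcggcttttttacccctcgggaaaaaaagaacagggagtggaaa
Acvr1c: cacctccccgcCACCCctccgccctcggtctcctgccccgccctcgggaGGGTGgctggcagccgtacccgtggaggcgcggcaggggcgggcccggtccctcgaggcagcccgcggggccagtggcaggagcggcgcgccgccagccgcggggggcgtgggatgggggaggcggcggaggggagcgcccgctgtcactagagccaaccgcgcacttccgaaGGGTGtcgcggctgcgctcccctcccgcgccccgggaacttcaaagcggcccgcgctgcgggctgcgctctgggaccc
Smad6: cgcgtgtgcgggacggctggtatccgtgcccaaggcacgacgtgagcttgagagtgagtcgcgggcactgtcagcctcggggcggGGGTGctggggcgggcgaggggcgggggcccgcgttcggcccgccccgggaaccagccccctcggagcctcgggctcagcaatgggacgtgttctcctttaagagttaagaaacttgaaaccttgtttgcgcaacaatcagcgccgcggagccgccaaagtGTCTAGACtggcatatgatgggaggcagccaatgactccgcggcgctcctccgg

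The KLF box was present in 22 of the 30 promoters (73.3%), against 57.5% of 32851 RefSeq promoters of the same length. The BMP-SMAD box was present in 10 (33.3%, against 11.9%) and the SMAD box in 12 (40%, against 49.6%). The palindrome of Smad6 starts at position -4 from the RefSeq start, and 0.213% of all promoters hold that motif. Member promoters were also richer in G and C, with a median of 64.7% against 52.7%, and the motif shares were not adjusted for this. Tgfb1 and Tgif1, which rose, and Acvr1c, which fell, each held 3 KLF boxes, and Id2, which rose, held 2, as did Ltbp3 and Inhbb, which fell. A match is a description of these letters and not a bound site.

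Among the ligand genes Tgfb1 rose and Tgfb3, Bmp2 and Inhbb fell, where 39.4% of all genes rose and 34.9% fell. Of the 3 lower genes only Inhbb stayed lower in value after scaling to adipocyte markers, under which 87.8% of all genes were called higher. Tgfb1 (ENSMUSG00000002603, chromosome 7, 25687002 to 25705077, plus strand) encodes the most widely made TGF-beta ligand. It stood at 13.9, 13.5, 14 and 16.4 FPKM over WT replicates 1 to 4, against 31.4, 32.6, 29.4 and 35 over those of KLF10AKO, so the lowest KLF10AKO library lay above the highest WT library. Its mean was 2.22-fold higher, with a log2 change of 1.12 (standard error 0.0784, adjusted p = 1.99e-06) and 2.74 after marker scaling. Inhbb (ENSMUSG00000037035, chromosome 1, 119415465 to 119422248, minus strand), the beta B subunit that forms activin B, went the other way, from 23.6, 25.5, 26.8 and 20.5 FPKM across WT libraries to 7.25, 7.08, 8.32 and 5.83 in KLF10AKO. It was 3.39-fold lower in mean (log2 change -1.69, standard error 0.115, adjusted p = 1.70e-06), and its change after marker scaling was -0.10, which did not pass (adjusted p = 0.255).

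Tgfb3, a ligand known from mesenchymal tissue, stood at 9.08, 7.29, 7.33 and 10.2 FPKM over WT replicates 1 to 4, against 5.02, 4.35, 5.54 and 3.2 over those of KLF10AKO (log2 change -0.85, adjusted p = 0.00136, and 0.68 after marker scaling). Its KLF10AKO libraries ran from replicate 3 down through 1 and 2 to 4, which is the order of the adipocyte, muscle and blood endothelial sums. With replicate 4 alone the change was -1.26. The BMP ligand gene Bmp2 changed from 2.92, 2.76, 3.19 and 2.99 FPKM across WT libraries to 1.78, 2.05, 2.54 and 1.77 in KLF10AKO (log2 change -0.46, adjusted p = 0.00359, and 0.91 after marker scaling), a call lost with TPM (-0.32). Bmp4 did not pass, at 2.44, 2.78, 2.34 and 2.48 FPKM in WT, against 2.04, 2.37, 2.72 and 1.87 in KLF10AKO with overlapping groups (log2 change -0.14, 95% interval -0.38 to 0.10, adjusted p = 0.264), and it was called higher at 1.22 with marker scaling and lower at -0.43 with quantile normalization. A pair of ligand genes lay under the filter. Tgfb2 overlapped between the groups, at 0.335, 0.654, 0.552 and 0.341 FPKM in WT, against 0.446, 0.409, 0.676 and 0.362 in KLF10AKO. Inhba, the beta A subunit of activin A, was nearly silent, at 0.115, 0.0847, 0.0626 and 0.192 FPKM in WT, against 0.033, 0.00825, 0.0345 and 0.0177 in KLF10AKO, which is 1 to 18 reads a library, and its groups did not overlap (exact two-sided permutation p = 0.0286, the smallest that 4 against 4 can give, with no filter on level).

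A share is taken within a library and does not depend on the scaling between libraries. It can still change with the cells in the tissue, and their part was not tested. In KLF10AKO the FPKM of Tgfb1, as of Tgfbr2 and Id2 below, ran from replicate 4 down through 2 and 1 to 3. That is the order of the B cell and T cell sums. Tgfb1 made up 25.7% to 30.8% of the summed ligand FPKM in WT and 59.7% to 72.8% in KLF10AKO. Inhbb made up 38.6% to 49.4% and 12.1% to 16.9%, and so was the leading ligand message in the 4 WT libraries and Tgfb1 in the 4 KLF10AKO libraries. The ratio of Tgfb1 to Tgfb3 FPKM was 1.73 ± 0.183 in WT and 7.48 ± 2.44 in KLF10AKO (mean ± SD of 4 libraries each). This pair, like the other ratios below, was chosen after its values were seen and is given with no test.

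All 4 latent TGF-beta binding protein genes fell with the authors' scaling, where 34.9% of all genes were called lower. With marker scaling 3 of them turned to higher, where 87.8% of all genes were called higher. Latent binding proteins hold the inactive ligand in the extracellular matrix. Ltbp3 (ENSMUSG00000024940, chromosome 19, 5740904 to 5758532, plus strand) had the largest fall of the 39 genes. It stood at 123, 124, 118 and 132 FPKM over WT replicates 1 to 4, against 30.4, 28, 36.2 and 24.3 over those of KLF10AKO, 4.18-fold lower in mean (log2 change -2.06, standard error 0.111, adjusted p = 4.66e-07). It was the only one of the 39 genes still called lower after marker scaling, at -0.42 (adjusted p = 9.17e-04). KLF10AKO replicate 3 was highest and replicate 4 lowest, again in the order of the adipocyte and muscle sums, and the change with replicate 4 alone was -2.33.

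Ltbp4 (ENSMUSG00000040488, chromosome 7, 27305136 to 27337692, minus strand), which is also needed for elastic fibres, went from 46.7, 51.9, 43.3 and 44.4 FPKM across WT libraries to 23.1, 21.4, 23.5 and 21.6 in KLF10AKO (log2 change -1.04, standard error 0.0696, adjusted p = 1.59e-06, and 0.60 after marker scaling). Ltbp2 and Ltbp1 were made at lower levels. Ltbp2 stood at 11.9, 11, 9.46 and 15.2 FPKM in WT, against 6.55, 5.71, 5.68 and 7.01 in KLF10AKO (log2 change -0.86, adjusted p = 3.60e-04, and 0.71 after marker scaling), and with replicate 4 alone it no longer passed (-0.70, adjusted p = 0.0759). Ltbp1 stood at 2.62, 3.18, 2.92 and 2.66 FPKM in WT, against 2.02, 1.8, 2.05 and 1.87 in KLF10AKO (log2 change -0.46, adjusted p = 7.59e-04, and 0.91 after marker scaling), a call lost with TPM (-0.32). Ltbp3 gave 65.3% to 68% of the summed FPKM of the 4 genes in WT and 44.4% to 53.7% in KLF10AKO.

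**Figure D3:**
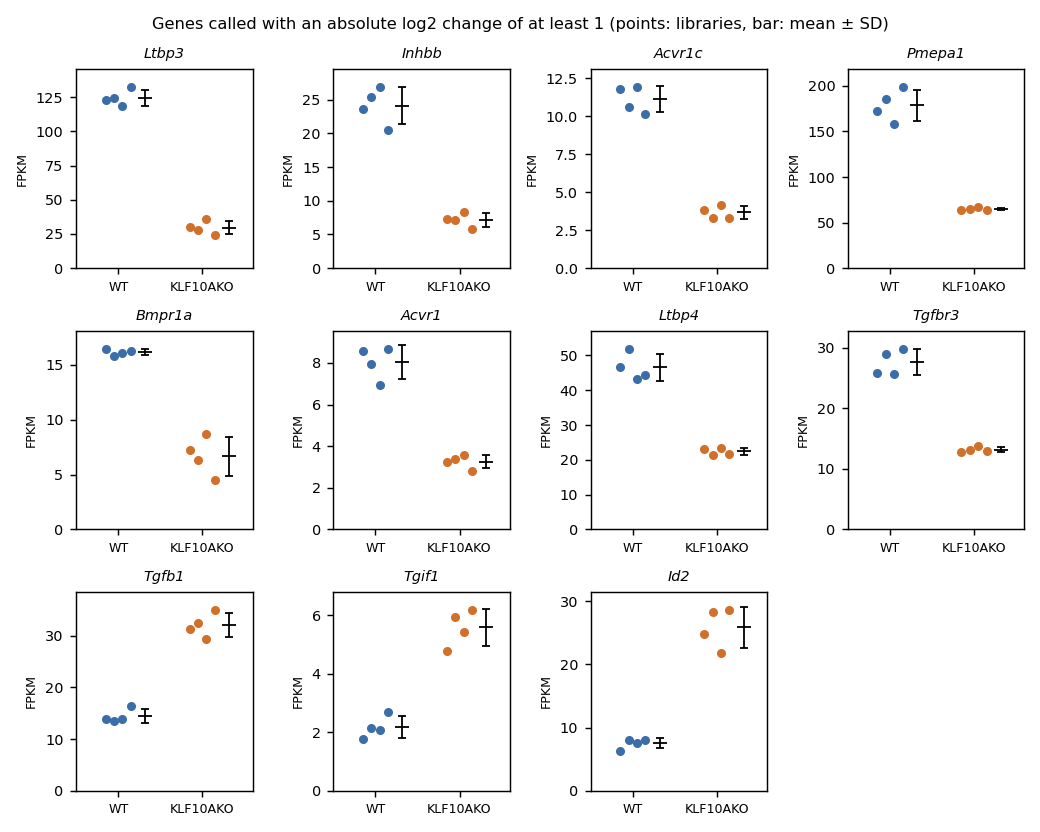
FPKM (y axis, from 0) of the 11 genes called with an absolute log2 change of at least 1, one panel a gene, with a point for each library and the mean ± SD of 4 libraries beside them. The groups are separated in each panel, with 8 genes lower and 3 higher in KLF10AKO.

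The type I receptor genes split, with Tgfbr1 called higher and the other 5 lower (39.4% and 34.9% of all genes). These 5 changed sign with marker scaling, under which 87.8% of all genes were called higher. Acvr1c (ENSMUSG00000026834, chromosome 2, 58267453 to 58357895, minus strand), a receptor of activin B known from mature adipocytes, fell most. It stood at 11.8, 10.6, 11.9 and 10.1 FPKM in WT, against 3.84, 3.32, 4.18 and 3.31 in KLF10AKO (log2 change -1.48, standard error 0.0884, adjusted p = 8.25e-07). After marker scaling its change was 0.052 (adjusted p = 0.545). Bmpr1a (ENSMUSG00000021796, chromosome 14, 34410734 to 34503341, minus strand), the main BMP type I receptor of the adipocyte lineage, was almost constant in WT at 16.4, 15.7, 16.1 and 16.2 FPKM and spread in KLF10AKO at 7.2, 6.31, 8.71 and 4.46 (log2 change -1.25, standard error 0.163, adjusted p = 1.08e-04). Replicate 3 was again highest and replicate 4 lowest. With replicate 4 alone the change was -1.74, and after marker scaling of all libraries it was 0.33. Acvr1 (ENSMUSG00000026836, chromosome 2, 58388644 to 58567157, minus strand), a BMP and activin receptor, went from 8.6, 7.97, 6.93 and 8.69 FPKM across WT libraries to 3.2, 3.39, 3.57 and 2.83 in KLF10AKO (log2 change -1.19, standard error 0.092, adjusted p = 3.90e-06, and 0.32 after marker scaling).

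Acvrl1, known from endothelium, fell from 20.2, 19.6, 17.6 and 20.8 FPKM across WT libraries to 9.67, 9.55, 10.1 and 9.89 in KLF10AKO (log2 change -0.96, adjusted p = 1.40e-06, and 0.64 after marker scaling). The blood endothelial list had a median log2 change of -1.02 beside it. Acvr1b, the main activin type I receptor, had the highest level of the 6 in KLF10AKO. It stood at 19, 20.9, 17.7 and 28.7 FPKM in WT, against 13.5, 13.3, 12.5 and 14.1 in KLF10AKO (log2 change -0.65, adjusted p = 0.00205, and 0.96 after marker scaling), and with replicate 4 alone it no longer passed (-0.57, adjusted p = 0.149). Tgfbr1, the TGF-beta type I receptor, stood at 5.88, 6.45, 5.49 and 6.21 FPKM in WT, against 6.76, 7.19, 7.39 and 6.68 in KLF10AKO. Its rise was small (log2 change 0.21, standard error 0.0663, adjusted p = 0.0189). It no longer passed with quantile normalization (0.004), with replicate 4 alone (0.14), or without WT replicate 3 or KLF10AKO replicate 2. As a share of the 6 type I receptor messages, Tgfbr1 was 6.85% to 7.94% in WT and 15.3% to 16.7% in KLF10AKO.

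Among the type II receptors Tgfbr2 rose and the other 3 fell (39.4% and 34.9% of all genes). With marker scaling these 3 changed sign, and 87.8% of all genes were called higher. Tgfbr2 (ENSMUSG00000032440, chromosome 9, 116084293 to 116175360, minus strand), which binds the TGF-beta ligands, stood at 16.8, 14.8, 15.6 and 15.8 FPKM in WT, against 22.1, 23.9, 20.6 and 24.6 in KLF10AKO, with no overlap (log2 change 0.52, standard error 0.0704, adjusted p = 1.42e-04, and 2.13 after marker scaling). Bmpr2, the long-tailed BMP type II receptor, went from 6.59, 7.01, 6.19 and 6.94 FPKM across WT libraries to 2.99, 3.16, 3.62 and 2.68 in KLF10AKO (log2 change -1.0, adjusted p = 8.27e-06, and 0.49 after marker scaling). The activin receptor Acvr2a changed from 5.89, 5.3, 5.74 and 5.76 FPKM across WT libraries to 3.0, 3.14, 3.54 and 3.47 in KLF10AKO (log2 change -0.71, adjusted p = 1.76e-05, and 0.78 after marker scaling); 7.84% of its length overlaps exons of Orc4 on the other strand, and the strand setting of the counts is not given in the sources used here. Acvr2b was low, at 0.989, 1.29, 1.03 and 1.92 FPKM in WT, against 0.604, 0.456, 0.463 and 0.49 in KLF10AKO (log2 change -0.82, adjusted p = 0.00175, and 0.19 after marker scaling). The Acvr2b call was lost with replicate 4 alone (adjusted p = 0.0733).

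The type II sums of the groups overlapped, at 28.4 to 30.4 FPKM in WT and 28.2 to 31.3 in KLF10AKO, while Tgfbr2 took a larger share. Tgfbr2 held 51.9% to 55.5% of it in WT and 73% to 78.8% in KLF10AKO, and Bmpr2 held 21.7% to 24.7% and 8.55% to 12.8%. The ratio of Tgfbr2 to Bmpr2 FPKM was 2.36 ± 0.21 in WT and 7.46 ± 1.44 in KLF10AKO, and that of Tgfbr1 to Bmpr1a was 0.373 ± 0.030 and 1.11 ± 0.288 (mean ± SD of 4 libraries each). Tgfbr3 (ENSMUSG00000029287, chromosome 5, 107106570 to 107289629, minus strand), the co-receptor betaglycan that presents ligand to the other receptors, fell from 25.9, 29, 25.7 and 29.8 FPKM across WT libraries to 12.9, 13.1, 13.9 and 13 in KLF10AKO (log2 change -1.03, standard error 0.065, adjusted p = 1.10e-06, and 0.58 after marker scaling). Tgfbr2 stood at 0.574 ± 0.066 of the Tgfbr3 level in WT and at 1.73 ± 0.18 times it in KLF10AKO. Bambi, a decoy receptor that lacks a kinase, was low at 1.24, 1.41, 1.06 and 1.45 FPKM in WT, against 0.90, 0.711, 0.908 and 0.708 in KLF10AKO (log2 change -0.45, adjusted p = 0.00676, and 0.66 after marker scaling), a call lost with TPM (-0.40).

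**Figure D4:**
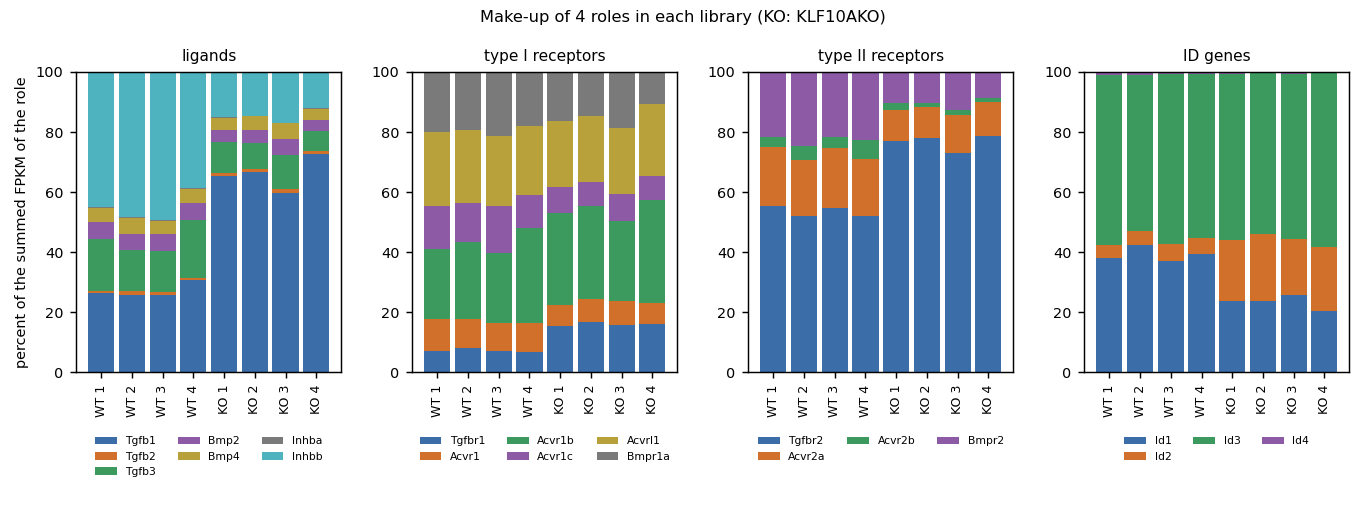
Percent of the summed FPKM of a role (y axis, 0 to 100) taken by each of its genes in the 8 libraries, for ligands, type I receptors, type II receptors and ID genes. Tgfb1 takes 59.7% to 72.8% of the ligand sum in KLF10AKO against 25.7% to 30.8% in WT, and Id2 18.5% to 22.3% of the ID sum against 4.57% to 5.6%.

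The SMAD transducers had the median closest to 0 of the roles with 4 or more tested genes, a log2 change of -0.21. With marker scaling the 5 genes were called higher at a median of 1.37. Over all genes 87.8% were then called higher, and the median was 1.46. Both BMP-branch genes fell. Smad1 stood at 8.08, 8.22, 7.05 and 8.12 FPKM in WT, against 5.59, 6.33, 5.86 and 6.84 in KLF10AKO (log2 change -0.33, adjusted p = 0.00409, and 1.21 after marker scaling). Smad5 was steadier between libraries, at 14.6, 15.7, 14.9 and 14.8 FPKM in WT, against 10.8, 10.7, 10.9 and 10.7 in KLF10AKO (log2 change -0.46, standard error 0.0468, adjusted p = 2.28e-05, and 1.14 after marker scaling). Smad2 and Smad3 of the TGF-beta branch and the shared partner Smad4 did not pass, and their groups overlapped. With quantile normalization Smad2 and Smad3 were called lower, at -0.25 and -0.36. Smad2 stood at 11.3, 9.64, 11.3 and 10.3 FPKM in WT, against 9.09, 10.1, 10.1 and 9.98 in KLF10AKO (log2 change -0.11, 95% interval -0.26 to 0.049). Smad3 stood at 10.9, 10.3, 9.68 and 11.3 FPKM in WT, against 9.28, 8.59, 11.6 and 7.22 in KLF10AKO (log2 change -0.21, 95% interval -0.49 to 0.081). Its KLF10AKO values ran in the order of the muscle sums, and with replicate 4 alone it was called lower at -0.51, as it also was without KLF10AKO replicate 3. Smad4 stood at 17.6, 18.3, 17.2 and 15.4 FPKM in WT, against 17, 16.5, 16.9 and 16.8 in KLF10AKO, with a log2 change of -0.021 (95% interval -0.16 to 0.12). The Smad1 call was lost with replicate 4 alone (-0.19, adjusted p = 0.196) and with TPM (-0.14).

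Of the 8 intracellular inhibitors 5 fell and Tgif1 rose (34.9% and 39.4% of all genes), and Smad7 and Skil did not pass. With marker scaling the 5 lower genes changed sign, and 87.8% of all genes were called higher. Pmepa1 (ENSMUSG00000038400, chromosome 2, 173224458 to 173276533, minus strand), a TGF-beta-induced membrane protein that sequesters SMADs, had the highest mean FPKM of the 41 genes in WT. It fell from 173, 186, 158 and 198 FPKM across WT libraries to 64.2, 65.3, 67.1 and 63.8 in KLF10AKO (log2 change -1.45, standard error 0.0761, adjusted p = 4.10e-07), and its change after marker scaling was 0.21 (adjusted p = 0.102). Tgif1 (ENSMUSG00000047407, chromosome 17, 70844205 to 70853546, minus strand), a nuclear corepressor of SMADs, rose 2.56-fold from a low level, 1.79, 2.14, 2.08 and 2.71 FPKM in WT, against 4.78, 5.96, 5.43 and 6.19 in KLF10AKO (log2 change 1.19, standard error 0.118, adjusted p = 1.81e-05, and 2.60 after marker scaling). The inhibitory SMADs parted. Smad6, which acts mainly on BMP signals and carries the palindrome shown above, fell from 20.8, 22.5, 18.2 and 27.4 FPKM across WT libraries to 11, 10.9, 11.1 and 11.1 in KLF10AKO (log2 change -0.97, adjusted p = 4.25e-05, and 0.64 after marker scaling). Smad7, which acts on both branches, stood at 7.23, 8.09, 6.32 and 10.6 FPKM in WT, against 9.5, 9.78, 9.23 and 11.2 in KLF10AKO (log2 change 0.30, 95% interval -0.014 to 0.62, adjusted p = 0.0764). It passed as higher without WT replicate 4 at 0.44, with TPM at 0.52 and with marker scaling at 1.87. The ratio of Smad7 to Smad6 FPKM was 0.36 ± 0.0184 in WT and 0.90 ± 0.0748 in KLF10AKO (mean ± SD of 4 libraries each).

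The SMAD corepressor gene Ski fell from 28.3, 29, 25.7 and 33.4 FPKM across WT libraries to 19.7, 18.9, 19.4 and 18.6 in KLF10AKO (log2 change -0.58, adjusted p = 1.25e-04, and 1.04 after marker scaling). Its relative Skil stood at 5.89, 7.26, 5.79 and 7.92 FPKM in WT, against 7.47, 7.86, 7.46 and 8.26 in KLF10AKO and did not pass (log2 change 0.21, 95% interval -0.025 to 0.44, adjusted p = 0.0945), although it passed as higher with TPM (0.42) and without WT replicate 4 (0.28). The ubiquitin ligase genes Smurf1 and Smurf2, which mark SMADs and receptors for degradation, both fell. Smurf1 stood at 15.1, 15, 14.8 and 17 FPKM in WT, against 9.82, 9.66, 10.1 and 11.5 in KLF10AKO (log2 change -0.57, adjusted p = 9.93e-05, and 1.03 after marker scaling). Smurf2 stood at 9.85, 9.59, 9.42 and 10.1 FPKM in WT, against 7.1, 7.36, 7.44 and 7.27 in KLF10AKO (log2 change -0.39, adjusted p = 8.32e-05, and 1.17 after marker scaling), and lost its call with TPM (-0.20).

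The ID genes, direct BMP targets whose proteins block basic helix-loop-helix factors, did not move together. Id2 rose, and Id1, Id3 and Id4 fell (39.4% and 34.9% of all genes). The 3 lower genes changed sign with marker scaling, under which 87.8% of all genes were called higher. Id2 (ENSMUSG00000020644, chromosome 12, 25093799 to 25097140, minus strand), which is also known for its role in innate lymphoid cells and natural killer cells, had the largest rise of the 39 genes. It stood at 6.37, 8.02, 7.63 and 8.07 FPKM in WT, against 24.8, 28.3, 21.7 and 28.6 in KLF10AKO, 3.44-fold higher in mean (log2 change 1.71, standard error 0.107, adjusted p = 1.06e-06, and 3.29 after marker scaling). Id1 (ENSMUSG00000042745, chromosome 2, 152736251 to 152737410, plus strand) fell from 52.9, 71.4, 50.5 and 59.6 FPKM across WT libraries to 28.9, 30.2, 30.2 and 27 in KLF10AKO (log2 change -0.99, standard error 0.106, adjusted p = 3.14e-05, and 0.65 after marker scaling). The ratio of Id2 to Id1 FPKM was 0.13 ± 0.017 in WT and 0.894 ± 0.143 in KLF10AKO (mean ± SD of 4 libraries each).

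Id3 had the highest level of the 4 ID genes in each library and changed little, from 78.6, 87.2, 76.9 and 82.4 FPKM across WT libraries to 67.5, 67.6, 64.6 and 76.8 in KLF10AKO (log2 change -0.23, adjusted p = 0.0154, and 1.42 after marker scaling). Its call was lost with TPM (-0.025), with quantile normalization (-0.030) and with replicate 4 alone (-0.079). Id4 was low, at 1.62, 1.78, 1.11 and 1.06 FPKM in WT, against 0.644, 0.602, 0.788 and 0.383 in KLF10AKO (log2 change -0.77, adjusted p = 0.00311, and 0.28 after marker scaling). Tgfbi, a matrix protein induced by TGF-beta and made by macrophages among other cells, stood at 24, 25.2, 27.9 and 20.4 FPKM in WT, against 28.1, 29.2, 27.4 and 32.5 in KLF10AKO. Its groups overlapped. It passed as higher (log2 change 0.27, standard error 0.0978, adjusted p = 0.0338), but the call was lost with each of 5 libraries left out (WT replicates 1 and 4, KLF10AKO replicates 1, 2 and 4), with no filter on level and with replicate 4 alone.

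The other genes of the pathway, a list of 72 of which 51 were tested, had 31 called lower, 11 higher and 9 not, with a median log2 change of -0.50. Over all genes 34.9% were called lower and 39.4% higher. With marker scaling 2 of the 51 were called lower and 41 higher, against 1.2% and 87.8% of all genes. Of 10 tested ligand genes 5 fell and 2 rose (34.9% and 39.4% of all genes), and with KLF10AKO replicate 4 alone 5 were called lower and 1 higher (29.7% and 32.4%). Bmp3, a BMP-family ligand known from bone, stood at 31.4, 33.1, 32.5 and 33.7 FPKM in WT, against 9.11, 8.52, 11 and 6.65 in KLF10AKO (log2 change -1.85), and Gdf10 and Bmp6 changed by -1.51 and -1.17. Bmp1, which is named with the BMPs but encodes a procollagen protease, changed by -1.29. Gdf11, a relative of myostatin, rose from 1.05, 0.77, 0.837 and 0.603 FPKM across WT libraries to 5.3, 5.62, 4.67 and 6.85 in KLF10AKO (log2 change 2.21). The other higher ligand gene was Mstn, myostatin itself, at 0.148, 0.0445, 0.0246 and 0.0252 FPKM in WT and 2.42, 1.64, 4.14 and 0 in KLF10AKO replicates 1 to 4, the order of the muscle sums. It met the filter only through KLF10AKO replicates 1 to 3, its groups overlapped, and with replicate 4 alone it did not pass (-0.16, adjusted p = 0.369). Among 4 tested receptors and co-receptors 3 fell (34.9% of all genes), with Rgma, Eng and Rgmb at log2 changes of -1.68, -0.91 and -0.47. With marker scaling Eng and Rgmb were called higher, at 0.74 and 1.01, and Rgma did not pass, at -0.17.

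Of 17 tested genes that activate or trap ligand 13 fell and 3 rose, against the same shares of all genes (34.9% and 39.4%). The extracellular antagonists Bmper, Fstl1, Chrdl1 and Fst changed by -1.76, -1.76, -1.54 and -1.47 on the log2 scale. The higher genes were the BMP antagonists Grem1 and Sostdc1 and the gene Nrros, which tethers latent TGF-beta 1 on macrophages and microglia. Grem1 had 0 reads in the 4 WT libraries and stood at 1.98, 2.73, 1.66 and 2.55 FPKM in KLF10AKO. Sostdc1 stood at 0.451, 0.27, 0.224 and 0.306 FPKM in WT, against 1.81, 2.31, 1.55 and 1.75 in KLF10AKO. Both met the filter only through their KLF10AKO values, so their calls add no support to the count. Sostdc1 and Nrros changed by 1.53 and 1.52, the latter from 8.78, 8.93, 8.57 and 9.21 FPKM across WT libraries to 25.8, 26.8, 23.6 and 29.8 in KLF10AKO. Of 7 tested lymph node stroma genes 6 were called higher, where 39.4% of all genes were. The cells that made Grem1, Sostdc1 and Nrros were not tested. Among 20 intracellular regulators 10 fell and 6 rose, where 34.9% of all genes fell and 39.4% rose. Wwp1, Zeb2, Tob1 and Ppm1a changed by -0.94, -0.90, -0.88 and -0.84, and Rnf111, Tgif2, Tab1 and Trim33 by 0.86, 0.79, 0.64 and 0.40. Tgif2, with a mean of 0.224 FPKM in WT and 0.785 in KLF10AKO, met the filter only through its KLF10AKO values. Its call adds no support to the count.

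Among genes known to respond to TGF-beta or BMP, leaving out Klf10, 29 were tested, of which 20 fell, 2 rose and 7 did not pass, where 34.9% of all genes fell and 39.4% rose. With Klf10 counted, 21 of 30 were called lower. With marker scaling 4 of the 30 were called lower and 20 higher, against 1.2% and 87.8% of all genes. Acta2, smooth muscle actin, stood at 480.1, 575, 414 and 636 FPKM in WT, against 109, 108, 124 and 98.4 in KLF10AKO (log2 change -2.24, and -0.59 after marker scaling). The matrix genes Col3a1, Lox and Col1a1 changed by -2.05, -1.87 and -1.82. After marker scaling Col3a1 and Lox were still called lower, at -0.40 and -0.23, and Col1a1 did not pass, at -0.17 (adjusted p = 0.144). The exceptions were Junb, an AP-1 subunit also known from lymphocytes, which rose from 15, 13.8, 11.9 and 17.1 FPKM across WT libraries to 41.2, 43, 40.7 and 47.8 in KLF10AKO (log2 change 1.55), and Ier3 at 0.46. The Ier3 call was lost with KLF10AKO replicate 4 alone (adjusted p = 0.0707). Mural cell markers summed to 327 to 337 FPKM in WT and 151 to 352 in KLF10AKO. Of 9 tested mural markers 8 were called lower and 1 higher, against 34.9% and 39.4% of all genes. Their median log2 change was -1.08, and that of stromal progenitor markers was -0.98. The part of these cell types in the response genes was not tested.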

How the data were processed

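Poly(A)-selected RNA of 8 iWAT libraries was sequenced, per the labels' protocols. HISAT2 2.0.5, featureCounts 1.5.0-p3, edgeR 3.22.5 and mm10 are named in the submitters' processing notes, without their roles. Annotation release and strand setting: not given in the sources used here. Values are used as the authors deposited them, in FPKM, whose library size is their own. Multiplied by gene length, 100% of them came to whole reads, within 0.01 of a read. Gene coordinates were those of GENCODE M21 for 39 of the 41 genes, and 13 of the 41 overlap exons of another gene, by at most 9.34% of their length for any single gene.

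With limma 3.58.1 in R 4.3.3, lmFit and eBayes with trend were fitted to log2(FPKM + 0.5) of the 16012 genes with a mean FPKM of at least 0.5, with no covariate. A fold change on this scale is understated for low genes. Two-sided p-values got Benjamini-Hochberg adjustment over all 16012 genes, with a threshold of 0.05. Means are given ± SD. The procedure was run on simulated data of 16012 genes, with 100 changed 2-fold and 100 changed 1.5-fold. It recovered 91% and 63% of these, and 3.75% of calls were false. Few genes changed there, whereas 74.3% passed here, so those rates may not carry over. A missing call is not evidence of no change. Libraries of a group differed beyond counting noise in all 12 pairs (mean squared z of 4.81 to 89.3). The members, lists and alternatives were chosen with earlier results of these data known. All members were named. Of the other lists, up to 4 genes a direction with the largest passing change and no overlap between groups were named, while Mstn was added after its values were seen. Alternatives were other pseudocounts and filters, TPM, quantile normalization, scaling to 10 adipocyte markers, voom on recovered reads, a replicate block, KLF10AKO replicate 4 alone (assumed to vary like WT) and each library left out.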

Additional observations from a re-analysis of the deposited data

Results flagged for a closer look

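In 4 of 82 groups of 4 values, a library stood apart from the other 3 by more than Dixon's 95% critical value, where chance gives about 1 in 20 groups, or 4.1. Tgfb1 was high in WT replicate 4, at 16.4 FPKM against 14.0 in the nearest library. Smurf1 was high in the same library, at 17.0 FPKM against 15.1. Smad1 was low in WT replicate 3, at 7.05 FPKM with the next at 8.08. Smad2 was low in KLF10AKO replicate 1, at 9.09 FPKM with the next at 9.98. Leaving out these libraries left the calls of Tgfb1, Smurf1 and Smad1 and the missing call of Smad2 as they were.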

How the results depend on the processing

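Klf10 and the 39 tested genes kept direction and call with pseudocounts of 1 and 0.1 and with voom on recovered reads. They also did with a minimum mean FPKM of 2, which 36 of the 39 met. All of these fits, voom included, kept the library sizes behind the authors' FPKM, so they do not test the scaling. Scaling to adipocyte markers moved the counts most: members called higher went from 6 to 33 and lower from 27 to 1, other pathway genes from 11 to 41 and from 31 to 2, and response genes from 2 to 20 and from 21 to 4. Under it Klf10 turned to 0.72, and 29 members changed sign. These were Tgfb3 at 0.68, Bmp2 at 0.91, Bmp4 at 1.22, Ltbp1 at 0.91, Ltbp2 at 0.71, Ltbp4 at 0.60, Acvr1 at 0.32, Acvr1b at 0.96, Acvr1c at 0.052, Acvrl1 at 0.64, Bmpr1a at 0.33, Acvr2a at 0.78, Acvr2b at 0.19, Bmpr2 at 0.49, Tgfbr3 at 0.58 and Bambi at 0.66. The rest were Smad1 at 1.21, Smad2 at 1.47, Smad3 at 1.37, Smad4 at 1.59, Smad5 at 1.14, Smad6 at 0.64, Ski at 1.04, Smurf1 at 1.03, Smurf2 at 1.17, Pmepa1 at 0.21, Id1 at 0.65, Id3 at 1.42 and Id4 at 0.28. The scaling assumes equal adipocyte markers in every library, and the cause was not tested. With TPM, Bmp4 turned to 0.035, Smad2 to 0.095 and Smad4 to 0.19, none of them called in either fit, 6 calls were lost (Bmp2, Ltbp1, Bambi, Smad1, Smurf2 and Id3) and 2 gained (Smad7 and Skil). With quantile normalization 2 were lost (Tgfbr1 and Id3) and 3 gained (Bmp4, Smad2 and Smad3). TPM moved the median of all genes to 0.25 and quantile normalization to -0.16. Over all genes, 53.0% of calls were higher with the authors' scaling, 63.4% with TPM, 41.2% with quantile normalization and 98.7% with marker scaling. Other pathway genes called higher numbered 7 with a minimum mean FPKM of 2, where 40 were tested, and 6 with quantile normalization. Response genes called higher numbered 1 with KLF10AKO replicate 4 alone. With each library left out in turn, members called higher ranged from 4 to 7 and lower from 27 to 28, other pathway genes from 8 to 11 and from 30 to 31, response genes from 2 to 3 and from 21 to 22, and the Klf10 change from -0.92 to -0.81. Smad4 ranged from -0.070 without WT replicate 4 to 0.011 without WT replicate 2. With a replicate block, Smad7 (0.30, adjusted p = 0.0193) and Skil (0.21, adjusted p = 0.0472) passed and Tgfbi (adjusted p = 0.0803) did not. The replicate numbers share only a number: deviations of same-numbered libraries correlated at 0.003 to 0.031. Depth limits Inhba, Id4, Tgfb2 and Acvr2b most, with as few as 1, 26, 29 and 33 reads a library.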

Other observations

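Within KLF10AKO, the sums of adipocyte, skeletal muscle, blood endothelial and mural markers each ran from replicate 3 down through 1 and 2 to 4. Among the 39 genes, 8 followed that order (20.5%, against 14.2% of all tested genes), namely Tgfb3, Inhbb, Ltbp3, Acvr1c, Bmpr1a, Bambi, Smad3 and Id4, and 7 followed its reverse, namely Tgfb1, Tgfbr2, Smad7, Skil, Id2, Id3 and Tgfbi (17.9%, against 16% of all genes), which is also the order of the B cell, T cell and lymph node stroma sums. These counts are a description of 4 libraries, and were chosen after the data were seen.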
